A study of Mus musculus with 61 samples.

Results

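Cast and WSB are 2 of the 8 inbred mouse strains in this series, both derived from wild-caught mice, Cast from the subspecies Mus musculus castaneus and WSB from Mus musculus domesticus. The comparison took every library whose label begins with Cast (7 libraries) or WSB (8 libraries), 15 of the 61 in the series, and every gene that passed a filter on low counts, 18603 of the 21169 in the table. All of these libraries are polyadenylated RNA from bulk adipose tissue of mice kept on a diet rich in fat and sugar with 45 percent fat, so no library of either strain comes from another diet. The labels give no sex, age, fat depot, body weight or batch, and they do not say whether each library is a separate animal, so the p-values below measure the spread between libraries only. The other 6 strains (129, AJ, B6, NOD, NZO and PWK, on the same diet) entered as a frame for which of the pair stood apart. In the 61-library fit described below they also entered the low-count filter, the scaling and the shared estimate of spread.

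White adipose tissue stores triglyceride in fat cells, which take up fatty acids and glucose, make fatty acids from glucose, and release them again when lipolysis is switched on. Around the fat cells lie progenitors, vessels, macrophages, mast cells and lymphocytes, and depots inside the abdomen are covered by a sheet of mesothelial cells. Macrophages that gather on lipid in obese fat carry Trem2 and handle lipid in lysosomes, T cells enter the tissue with obesity, and mast cells sit along vessels and nerves. Inbred strains each carry their own haplotype at loci such as the major histocompatibility complex (MHC), whose class I and class II genes present peptides to T cells.

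The deposited values were estimated read counts, which summed to between 31185720 and 42680900 per Cast library and between 19851552 and 47342130 per WSB library. Levels are given as CPM, the usual count scaled to library size, as the lowest, the median and the highest library of a strain. Every difference is a log2 fold change of Cast over WSB ± its standard error (SE). The first adjusted p comes from edgeR's quasi-likelihood test fitted on all 61 libraries and the second from the same test fitted on the 15 libraries alone, each with Benjamini-Hochberg adjustment over all genes tested, and a gene is called where the first lies under 0.05. A gene is described as sharing reads with similar genes where more than 50% of its values were fractions, which held for 4105 of the 18603 genes tested.

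On the first principal component of the 15 libraries, which held 36.7% of their variance, Cast lay between -104.8 and -58.4 and WSB between 41.4 and 76.8. On the second component (17.2% of the variance), WSB replicates 1, 3, 4 and 9 lay between 42.6 and 47.9. WSB replicates 5 to 8 lay between -117.8 and -14.1. Cast replicates 1 to 3 lay between 15.4 and 64.9 and Cast replicates 5 to 8 between -38.5 and 15. In WSB this was the same division as high and low levels of the X-linked RNA Xist given with Ucp1. In Cast this component left no clear gap between high and low Xist. Cast replicate 3, with 618 CPM of Xist, lay at 15.4 and Cast replicate 6, with 0.506 CPM, at 15. Cast replicate 8 had an intermediate level of Xist, at 52.8 CPM. Cast replicates 5 and 6 stood apart on the third component (11.6% of the variance), at 75.4 and 61.9, against -87.3 to 23.9 for the other Cast libraries and -15.2 to 39.5 for WSB. The summed level of 22 mature adipocyte markers was lowest in Cast replicate 5, at 21040 CPM, beside a Cast median of 55210 CPM, against a lowest of 47060 CPM and a median of 58440 CPM in WSB. Counts of list genes and folds that moved by more than 1.5 times without those 2 libraries are given with and without them. For Serpina3i the levels in those libraries are given instead. The median within-strain SD of log2 CPM was 0.459 in Cast and 0.339 in WSB, against 0.247 to 0.397 in the other strains. The 61-library fit shares 1 spread over all strains, so the 15-library fit is printed beside it.

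Of 18603 genes tested, 7731 differed between Cast and WSB, 41.6% of them: 3909 (21%) were higher and 3822 (20.5%) lower in Cast. The 15-library fit called 4710 of the 16081 genes it tested, or 29.3%, with 2424 (15.1%) higher and 2286 (14.2%) lower, and 4610 genes (24.8%) were called in the same direction by both, 2356 (12.7%) higher and 2254 (12.1%) lower. A change of at least 1 on the log2 scale was called for 3256 genes (17.5%), 1633 (8.78%) higher and 1623 (8.72%) lower in Cast. In 1754 genes (9.43%) the libraries of the strains did not overlap at all: all Cast libraries lay above all WSB libraries for 748 (4.02%) and below them for 1006 (5.41%). The median log2 fold change over all genes tested was 0.01. Among the 28 pairs of strains, ranked from the fewest genes called to the most, this pair was the 17th. Leaving out Cast replicates 5 and 6 left 6163 genes called (33.1%), 2847 (15.3%) higher and 3316 (17.8%) lower in Cast. The counts in gene lists given below stand against these shares. The share of members called was below the 41.6% of all genes in the lists of de novo lipogenesis, thermogenic genes, fatty acid uptake, fatty acid oxidation, complex I, branched-chain amino acid breakdown, B cells and neutrophils, and near it in those of triglyceride synthesis, fat cell markers, lipid-associated macrophages, interferon response, stress response, matrix, imprinted, clock and complement genes, so those totals say little about the lists as such. These shares take both directions together. All called members were lower among fat cell markers (10 of 22), de novo lipogenesis (6 of 20), complex I (7 of 25), branched-chain breakdown (6 of 20) and B cells (2 of 17), against 20.5% of all genes. Without Cast replicates 5 and 6 the same lists had 4, 4, 3, 4 and 1 lower, against 17.8% of all genes.

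Set against the other 6 strain means of log2 CPM, Cast stood alone more often than WSB did. Of the 7731 called genes, 2831 (36.6%) had only the Cast mean outside the range of the other 6 strain means, 1776 (23%) had only the WSB mean outside, and 803 (10.4%) had the 2 strains outside on opposite sides. Over all genes tested the shares were 23.1%, 16.8% and 4.6%. A further 1236 called genes (16%) had both means inside the range of the others, and 1085 (14%) had both outside on the same side. Over all genes tested these shares were 30.8% and 24.6%.

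**Figure D1:**
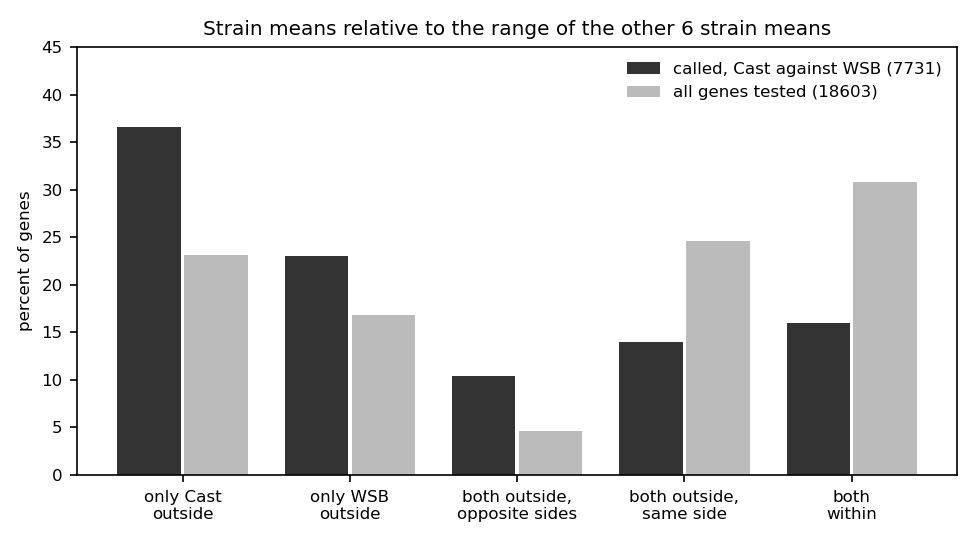
Share (percent, vertical axis from 0) of genes in each placement of the Cast and WSB mean log2 CPM relative to the range of the other 6 strain means, for the 7731 genes called between Cast and WSB (dark bars) and for all 18603 genes tested (light bars). Called genes had only Cast outside that range in 36.6%, against 23.1% of all genes tested.

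Calb1, which encodes the calcium buffer calbindin, had the largest rise among abundant genes with known symbols whose libraries did not overlap. Calb1 (chromosome 4, 15881264 to 15908064) had 11, 36.5 and 152 CPM in Cast, against 0, 0.0654 and 0.149 CPM in WSB, a log2 fold change of 9.58 ± 0.65 (adjusted p = 2.22e-18 and 2.4e-07). None of the other 6 strain means exceeded 0.0977 CPM. Gad1, the enzyme that makes the transmitter GABA from glutamate, had 7.27, 14.4 and 28.5 CPM in Cast and 0, 0.0298 and 0.29 CPM in WSB (log2 fold change 7.97 ± 0.95, adjusted p = 6.68e-10 and 2.12e-07). Tas1r1, a subunit of the umami taste receptor, had 22.4, 31.6 and 47.9 CPM in Cast and 0, 0.226 and 0.981 CPM in WSB (6.71 ± 0.53, adjusted p = 8.26e-16 and 7.1e-08). The Gad1 fold was 9.34 without WSB replicate 8. All 7 Cast libraries lay above all 8 WSB libraries for each of these 3 genes, and for each the WSB mean lay within the range of the other strains.

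The largest drop in the same class was that of St6galnac5, a sialyltransferase that builds gangliosides. St6galnac5 (chromosome 3, 152817081 to 152982246) had 0, 0.0373 and 0.584 CPM in Cast, against 46.6, 97.5 and 123 CPM in WSB (log2 fold change -9.16 ± 0.67, adjusted p = 3.02e-17 and 3.28e-08). Here WSB was the strain outside the range of the others, whose means ran up to 13.9 CPM. Fam213b, a prostamide and prostaglandin F synthase, had 0, 0.028 and 0.449 CPM in Cast and 7.28, 10.3 and 13.1 CPM in WSB, and the lowest mean of the other 6 strains was 11.8 CPM, so both strains lay below the rest (-6.43 ± 0.37, adjusted p = 1.72e-21 and 3.92e-06). The St6galnac5 fold was -10.1 without Cast replicate 7, and the Fam213b fold was -7.05 without Cast replicate 1 and -7.06 without Cast replicate 8. Cwc22, a splicing factor whose locus is known to be multiplied in WSB, served as a check of the labels. It had 22.8, 31 and 46.4 CPM in Cast and 1002, 1128 and 1252 CPM in WSB (-5.05 ± 0.14, adjusted p = 4.52e-36 and 1.06e-11), and the other strain means did not pass 21.8 CPM. Cwc22 shares reads, as did 16 of the 24 genes with the largest changes among abundant genes with known symbols and without overlap, against 4105 of all 18603 genes tested. One of those genes was mt-Co2, a mitochondrially encoded oxidase subunit with nuclear copies, at 4.29, 11.2 and 44.3 CPM in Cast and 1852, 3869 and 7388 CPM in WSB. Of 13 mitochondrially encoded genes 2 were called lower and 0 higher (median -0.18), with 1 lower without Cast replicates 5 and 6 (median 0.1). Together they had a median sum of 83840 CPM in Cast and 83410 CPM in WSB. How the reads of mt-Co2 were placed was not tested.

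12 genes were near absent in one strain, with at most 3 counts in every library, and at 1 CPM or more in every library of the other. WSB was the near-absent strain for 10 of them and Cast for 2. Most of the 12 share reads with similar genes, though Oprk1 and Grm4 do not. 1 of the 10, which shares reads, lies on chromosome Y and had 5.62 CPM or more in every Cast library, also in those with high Xist. How its reads were placed was not tested. The count was 21 without WSB replicate 8. Oprk1, the kappa opioid receptor, had 1.46, 4.62 and 12.3 CPM in Cast and was at least 55.5-fold higher there than the floor of 3 counts per WSB library allows. Grm4, a metabotropic glutamate receptor, had 1.27, 3.6 and 8.03 CPM in Cast and was at least 40.8-fold higher. The zinc finger genes Zfp738 and Zfp429, both of which share reads, were at least 59.3-fold and 28.8-fold higher in Cast.

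Lipid genes gave a mixed picture in which Insig1, Elovl6, Acss2 and Scd1 were lower in Cast and the lipid droplet coat gene Plin2 was higher. In the de novo lipogenesis list, 6 of 20 members fell and none rose in the 61-library fit, 4 fell in the 15-library fit, and the median log2 fold change was -0.66. Insig1, which restrains the maturation of the SREBP factors and is itself a target of them, had 64.9, 227 and 402 CPM in Cast, against 476, 656 and 935 CPM in WSB. Insig1 was below WSB in every Cast library (log2 fold change -1.57 ± 0.27, adjusted p = 3.82e-06 and 0.00188), with Cast below and WSB above all other strain means. Elovl6, which lengthens palmitate, had 22.3, 110.2 and 215 CPM in Cast and 23.4, 607 and 2010 CPM in WSB (-3.06 ± 0.86, adjusted p = 0.00329 and 0.0228), and Acss2, which makes acetyl-CoA from acetate, had 22, 126 and 419 CPM in Cast and 194, 586 and 1231 CPM in WSB (-1.71 ± 0.50, adjusted p = 0.00513 and 0.04). The ranges of Elovl6 and Acss2 overlapped between the strains. Elovl6 had 1063 to 2010 CPM in WSB replicates 1, 3, 4 and 9 and 23.4 to 150.3 CPM in the other WSB libraries, the division of the second principal component, and its fold was -2.70 with Xist as a covariate (adjusted p = 0.000163).

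Scd1, the desaturase that makes oleate, had 39150, 73380 and 88200 CPM in Cast and 103600, 116700 and 131500 CPM in WSB. Its ranges did not meet, although the fold was modest (-0.74 ± 0.19, adjusted p = 0.00153 and 0.0449; shares reads). Fasn, the fatty acid synthase, did not pass the test, with 794, 12610 and 20690 CPM in Cast and 4396, 17540 and 41050 CPM in WSB (-0.91 ± 0.53, adjusted p = 0.165 and 0.31). In the cholesterol list, 2 of 22 members rose and 9 fell in the 61-library fit, 1 rose and 2 fell in the 15-library fit, and none rose and 3 fell without Cast replicates 5 and 6. Cyp51, the lanosterol demethylase, had 11.3, 20 and 37.9 CPM in Cast and 42.4, 76.3 and 124 CPM in WSB without overlap (-1.93 ± 0.28, adjusted p = 9.85e-08 and 6.61e-05), again with Cast below and WSB above all other strain means.

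Plin2, which coats lipid droplets, had 474, 849.8 and 1909 CPM in Cast, against 239.9, 313 and 463 CPM in WSB (log2 fold change 1.66 ± 0.20, adjusted p = 1.34e-09 and 0.000131). All Cast libraries lay above all WSB libraries, the WSB mean was below every other strain mean and the Cast mean above them. The fold was 1.30 without Cast replicates 5 and 6. Among triglyceride synthesis genes, 3 of 14 rose and 3 fell, and 3 rose and 1 fell without those libraries. The risers were Lpin1 (0.85 ± 0.21, adjusted p = 0.000962 and 0.04) and Lpin2 (0.57 ± 0.10, adjusted p = 3.63e-06 and 0.00159), phosphatidate phosphatases, and Gpat4, an acyltransferase of the first step (0.65 ± 0.13, adjusted p = 7.43e-05 and 0.0186). Mogat1, a monoacylglycerol acyltransferase that shares reads, had 3.31, 7.95 and 21.9 CPM in Cast and 22, 36.1 and 50.5 CPM in WSB (-1.76 ± 0.29, adjusted p = 1.93e-06 and 0.00234).

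Of 18 genes of lipolysis and its control, 9 fell and 3 rose in the 61-library fit, but 3 fell and 3 rose without Cast replicates 5 and 6, and 1 of each was called in the 15-library fit. The median was -0.55 with those 2 libraries and -0.18 without them. The one that fell in both was Aqp7, the glycerol channel of fat cells, with 11.2, 77.7 and 146 CPM in Cast, against 193, 309.9 and 379 CPM in WSB (-1.81 ± 0.28, adjusted p = 3.23e-07 and 0.00501). The one that rose in both was Adra2a, the adrenergic receptor that restrains lipolysis, with 12.5, 13.9 and 27 CPM in Cast and 0.909, 2.3 and 2.65 CPM in WSB (3.08 ± 0.27, adjusted p = 3.79e-14 and 3.66e-07). Neither gene's ranges overlapped, and no other strain had a mean Adra2a level above 2.04 CPM. Adrb3, the main lipolytic adrenergic receptor of mouse fat cells, had 28.3, 361 and 522 CPM in Cast and 495, 635 and 1104 CPM in WSB, and it was called in the 61-library fit only (-1.44 ± 0.42, adjusted p = 0.00423 and 0.0524).

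**Figure D2:**
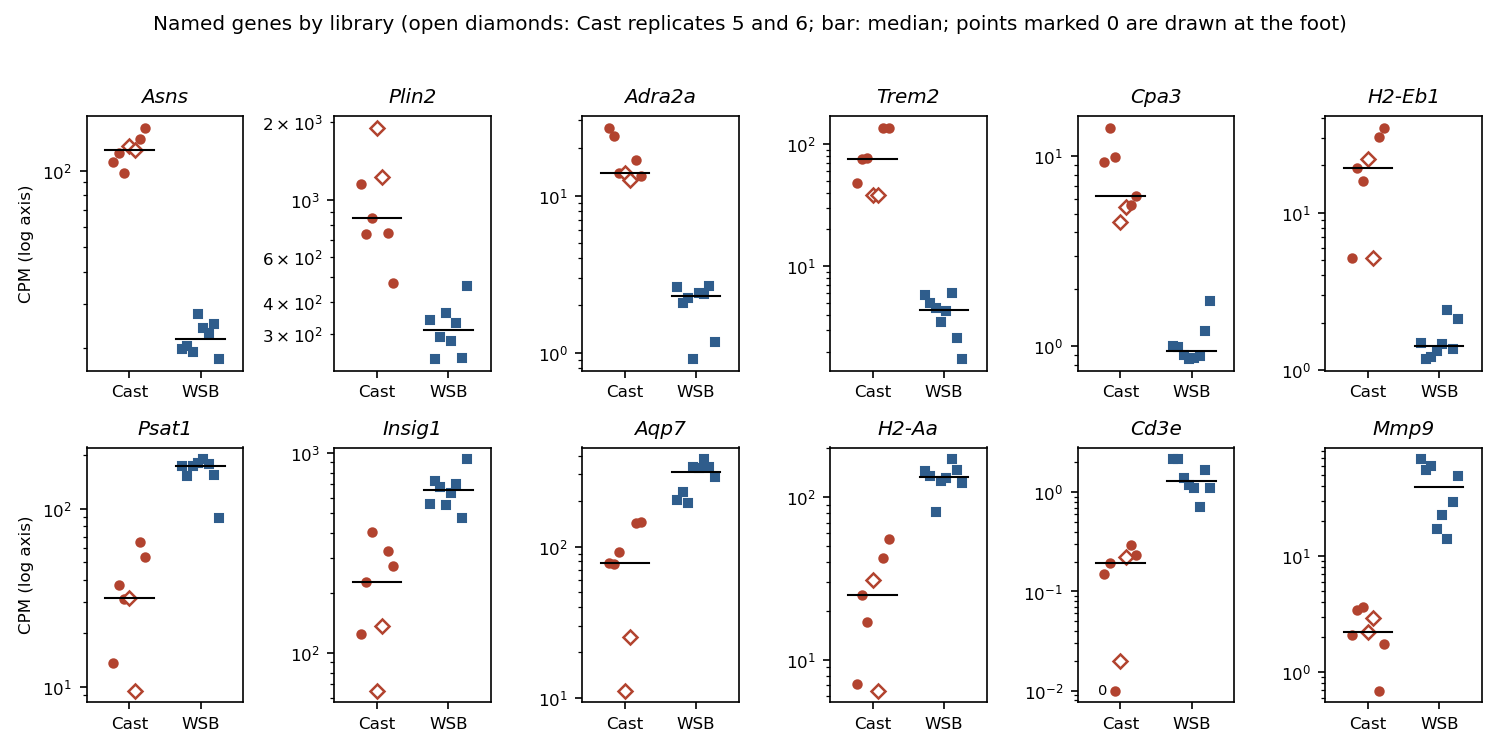
CPM on a log axis (vertical) of 12 named genes in each Cast library (left, filled circles; Cast replicates 5 and 6 as open diamonds) and each WSB library (right, filled squares), with a bar at the strain median; a Cd3e value of 0 is drawn at the foot. Asns, Plin2, Adra2a, Trem2, Cpa3 and H2-Eb1 sit higher in all Cast libraries, and Psat1, Insig1, Aqp7, H2-Aa, Cd3e and Mmp9 lower.

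Of 22 fat cell markers 10 fell and none rose in the 61-library fit, with a median of -0.47, but 3 of 22 fell in the 15-library fit, and 4 of 22 with a median of -0.19 without Cast replicates 5 and 6. 16 of the 22 also stand in another list. Retn, the hormone resistin, had 85.8, 656 and 837 CPM in Cast and 883, 1083 and 1489 CPM in WSB, without overlap (-1.06 ± 0.30, adjusted p = 0.00291 and 0.0479). Adipoq, the hormone adiponectin, had 221, 1916 and 2578 CPM in Cast and 2482, 3000 and 3316 CPM in WSB (-0.85 ± 0.28, adjusted p = 0.0133 and 0.139). Its 2 lowest libraries were Cast replicates 5 and 6, at 221 and 407 CPM, and without them the fold was -0.45 (adjusted p = 0.115). Lep, the hormone leptin, did not pass the test, with 0.72, 69.9 and 169 CPM in Cast and 5.37, 30.1 and 539 CPM in WSB (-0.76 ± 0.71, adjusted p = 0.413 and 0.621), and both strain means lay below those of the other 6, the lowest of which was 966 CPM. Pparg, the master regulator of fat cell formation, at -0.31 ± 0.16, and Cfd, the hormone adipsin, at -0.30 ± 0.42, did not pass it either (adjusted p = 0.112 and 0.237 for Pparg, 0.594 and 0.621 for Cfd).

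Thermogenic genes showed no common direction, with 2 of 22 higher and 3 lower and a median of 0, against 1 and 2 and a median of 0.37 without Cast replicates 5 and 6. Ucp1, the uncoupling protein of brown and beige fat, did not pass the test (-0.31 ± 1.32, adjusted p = 0.873 and 0.898), and its spread within each strain was far larger than the gap between them. In Cast replicates 1, 2, 3, 5, 6, 7 and 8, Ucp1 had 212, 1049, 1505, 3.55, 8.84, 27.4 and 105 CPM, beside 444, 398, 618, 0.422, 0.506, 0.814 and 52.8 CPM of Xist, the RNA that coats an inactive X chromosome. In WSB replicates 1 and 3 to 9, Ucp1 had 712, 651, 861, 10.5, 5.44, 4, 6.31 and 1872 CPM, beside 314, 316, 314, 0.0253, 0.241, 1.65, 3.77 and 405 CPM of Xist. In both strains the libraries with the most Ucp1 had 314 CPM of Xist or more. Cast replicate 8 came next in Cast and was intermediate in both RNAs. Sex is not labelled, and its part in the spread was not tested.

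**Figure D3:**
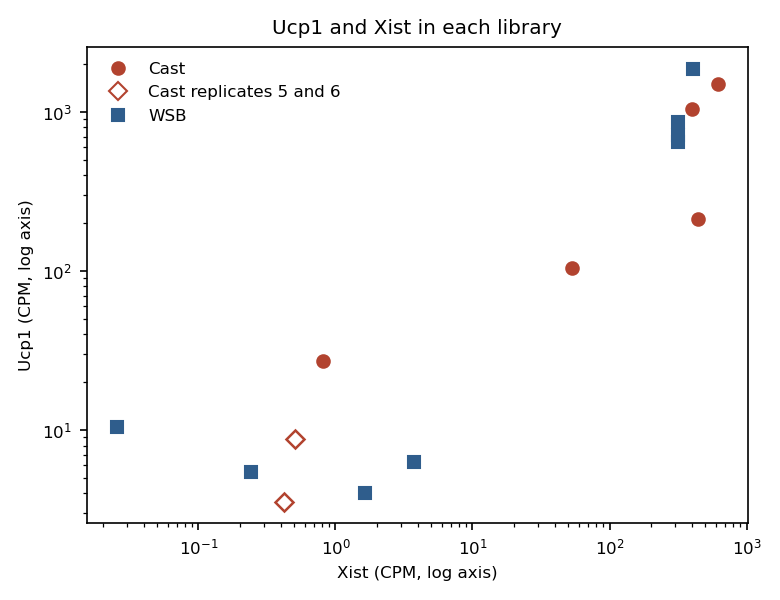
Ucp1 (vertical) against Xist (horizontal), both in CPM of the library on log axes, in the 7 Cast libraries (circles; replicates 5 and 6 as open diamonds) and the 8 WSB libraries (squares). Ucp1 runs from 3.55 to 1505 CPM in Cast and from 4 to 1872 CPM in WSB, and the libraries high in Ucp1 are high in Xist in both strains.

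Uptake and insulin pathway genes moved in both directions. Slc27a2, a fatty acid transporter and acyl-CoA synthetase, had 4.52, 12.8 and 48.2 CPM in Cast and 0.0275, 2.79 and 7.07 CPM in WSB (2.86 ± 0.85, adjusted p = 0.00536 and 0.00883). Of the 21 uptake genes 3 rose and 4 fell, and 4 rose and 2 fell without Cast replicates 5 and 6. Of 21 insulin and glucose uptake genes, 6 rose and 5 fell, with 4 and 2 in the 15-library fit and 6 and 2 without Cast replicates 5 and 6. Slc2a1, the basal glucose transporter, rose (1.31 ± 0.20, adjusted p = 4.32e-07 and 0.00576), as did Tbc1d1, a Rab regulator of transporter traffic, whose ranges did not overlap (0.69 ± 0.20, adjusted p = 0.00446 and 0.00167). Grb14, an adaptor that inhibits the insulin receptor, had 1.42, 2.63 and 4.04 CPM in Cast, against 5.06, 7.26 and 21.4 CPM in WSB, without overlap (-1.70 ± 0.32, adjusted p = 1.9e-05 and 0.00161). In fatty acid oxidation 1 of 28 genes rose and 2 fell, with 1 and 1 without Cast replicates 5 and 6, and in the nuclear subunits of respiratory complex I, 7 of 25 fell and none rose, with 4 falling in the 15-library fit and a median of -0.24, against 3 falling and a median of -0.03 without Cast replicates 5 and 6.

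Asns rose in Cast while Psat1 and Phgdh, enzymes of serine synthesis, fell. Asns, which makes asparagine, had 97.7, 120.5 and 148 CPM in Cast, against 18.1, 21.7 and 27.3 CPM in WSB, a log2 fold change of 2.45 ± 0.19 (adjusted p = 6.73e-16 and 3.4e-10). The lowest Cast library had more than 3 times the Asns of the highest WSB library, and the strains lay on opposite sides of the other 6, whose means ran between 31.3 and 102 CPM. Psat1, the transaminase of serine synthesis, had 9.49, 31.4 and 64.9 CPM in Cast, against 89.2, 175 and 191 CPM in WSB, also without overlap (-2.23 ± 0.25, adjusted p = 1.49e-10 and 0.00019). Phgdh, the first enzyme of that pathway, which shares reads, had 11, 34.1 and 101 CPM in Cast and 80.7, 177 and 254 CPM in WSB (-1.97 ± 0.32, adjusted p = 1.51e-06 and 0.00789). In Cast replicates 5 and 6 Asns had 124 and 120.5 CPM, and the fold without them was 2.44. Of 20 genes of branched-chain amino acid breakdown 6 fell and none rose, with 3 falling in the 15-library fit and 4 without Cast replicates 5 and 6, and a median of -0.30.

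Asns, Psat1 and Phgdh are known targets of ATF4, the factor that answers amino acid shortage and stress, together with Trib3, Chac1, Ddit3, Atf3, Sesn2, Shmt2 and Mthfd2. These 10 genes were put together after their values were seen. Sesn2, a leucine sensor that restrains growth signalling, had 48.8, 103 and 251 CPM in Cast and 31.3, 50.4 and 97 CPM in WSB (1.33 ± 0.25, adjusted p = 1.96e-05 and 0.00774), and the fold was 1.11 without Cast replicates 5 and 6. Trib3, a pseudokinase that ATF4 induces, had 7.03, 12.9 and 64.3 CPM in Cast and 3.57, 7.01 and 9.4 CPM in WSB (1.94 ± 0.31, adjusted p = 7.04e-07 and 0.00611), with a fold of 0.75 without those libraries. Chac1, which degrades glutathione, rose by 2.05 ± 0.35 with all libraries (adjusted p = 3.53e-06 and 0.0136), and its fold was 0.57 (adjusted p = 0.0808) without them. Ddit3, the stress factor CHOP, was at 0.69 ± 0.24 with all libraries (adjusted p = 0.0196 and 0.213), was no longer called without either of them alone, and was at -0.28 without both, and Atf3, a stress-induced repressor, did not pass the test (0.88 ± 0.49, adjusted p = 0.15 and 0.264). Shmt2 and Mthfd2, enzymes of mitochondrial folate metabolism, did not pass the test, at -0.15 ± 0.13 and 0.09 ± 0.34 (adjusted p = 0.386 and 0.36 for Shmt2, 0.865 and 0.937 for Mthfd2).

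The promoters of Asns, Trib3 and Psat1 show which of these genes carry the ATF4 composite motif close to their start. The letters TGATGNAA were searched on both strands in the window of 250 bases before to 50 after the RefSeq start site (GRCm38.p6, the C57BL/6J reference, not the Cast or WSB sequence), and matches are in capitals. The motif was chosen after the values were seen. It was present in 4 of the 10 windows (Asns, Chac1, Trib3 and Atf3), against 329 of 13407 promoters searched, or 2.45%. The 10 genes were put together as known ATF4 targets, so this share is no test of ATF4 in the strain difference. Each sequence runs 5′ to 3′ on the strand of its gene, the minus strand for all 3. Asns is at chr6:7693160-7693459, Trib3 at chr2:152344011-152344310 and Psat1 at chr19:15925010-15925309.
Asns: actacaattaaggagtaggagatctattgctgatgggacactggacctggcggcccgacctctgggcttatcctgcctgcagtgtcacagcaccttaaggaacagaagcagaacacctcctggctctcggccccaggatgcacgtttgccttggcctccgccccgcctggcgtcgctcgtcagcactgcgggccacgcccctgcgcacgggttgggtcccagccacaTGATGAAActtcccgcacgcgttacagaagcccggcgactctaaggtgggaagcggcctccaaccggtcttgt
Trib3: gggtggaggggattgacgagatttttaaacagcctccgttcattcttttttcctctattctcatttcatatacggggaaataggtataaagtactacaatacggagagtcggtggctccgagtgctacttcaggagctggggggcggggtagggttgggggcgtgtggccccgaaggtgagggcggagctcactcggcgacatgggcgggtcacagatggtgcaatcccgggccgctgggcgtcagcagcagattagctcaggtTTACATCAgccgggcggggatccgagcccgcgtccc
Psat1: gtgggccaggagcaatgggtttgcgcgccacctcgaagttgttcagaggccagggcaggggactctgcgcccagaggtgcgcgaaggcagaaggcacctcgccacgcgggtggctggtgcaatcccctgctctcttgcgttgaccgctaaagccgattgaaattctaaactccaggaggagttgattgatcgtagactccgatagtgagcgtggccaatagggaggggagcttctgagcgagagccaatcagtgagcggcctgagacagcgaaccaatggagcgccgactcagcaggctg
The Asns and Trib3 windows hold 1 match each and the Psat1 window none, which says only that these letters are not in that window. Genes with and without a match rose in Cast (Trib3 with, Sesn2 without).

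T cell and natural killer (NK) cell markers were mostly lower in Cast than in WSB. Of 27 tested markers 21 fell and none rose in the 61-library fit, 13 fell in the 15-library fit, and for 10 of them all Cast libraries lay below all WSB libraries. The median log2 fold change was -1.88, and -1.5 without Cast replicates 5 and 6. The markers summed to 5.527, 8.646 and 13.21 CPM in Cast (lowest, median and highest) and to 16.57, 22.04 and 27.59 CPM in WSB. Cd3e, a chain of the T cell receptor complex, had 0, 0.196 and 0.292 CPM in Cast, against 0.702, 1.29 and 2.16 CPM in WSB (-3.14 ± 0.38, adjusted p = 1.34e-09 and 0.000306), and its partner Cd3g had 0, 0.0373 and 0.202 CPM in Cast and 1.07, 1.35 and 1.65 CPM in WSB (-3.94 ± 0.43, adjusted p = 4.84e-11 and 8.21e-05). Nkg7, a granule protein of NK and cytotoxic T cells, fell as well (-2.81 ± 0.44, adjusted p = 5.01e-07 and 0.00117), by 3.49 without Cast replicate 7. Cast was below every other strain mean for all 3, while the WSB means of Cd3e and Cd3g were above them. All of these levels are low, and in bulk tissue fewer cells of a type and less RNA per cell cannot be told apart. Of 17 B cell markers 2 fell and none rose, and 1 fell without Cast replicates 5 and 6.

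Genes of the MHC differed gene by gene. In class II, 8 of 11 members fell and 1 rose in the 61-library fit, with 5 and 1 in the 15-library fit and a median of -1.58. H2-Aa, the alpha chain of I-A, had 6.46, 25.1 and 55.2 CPM in Cast, against 81.2, 134 and 172 CPM in WSB (-2.33 ± 0.28, adjusted p = 7.23e-10 and 0.000465). Cd74, the invariant chain that escorts class II molecules, had 14.1, 55.5 and 112 CPM in Cast and 140.5, 236 and 304 CPM in WSB (-2.01 ± 0.27, adjusted p = 1.51e-08 and 0.00121), and Ciita, the master activator of class II transcription, fell (-1.83 ± 0.30, adjusted p = 1.38e-06 and 0.00773). H2-Eb1, the beta chain of I-E, went the other way, at 5.16, 19.4 and 34.8 CPM in Cast and 1.17, 1.42 and 2.43 CPM in WSB (3.58 ± 0.35, adjusted p = 1.05e-12 and 6.83e-06). Every Cast library was above every WSB library for H2-Eb1 and below for H2-Aa and Cd74, and the WSB mean of H2-Eb1 was the lowest of all strains, below 5.24 CPM in the next.

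Class I genes and their peptide loading partners fell in 11 of 18 and rose in 1, with 9 and 1 in the 15-library fit, and 12 of the 18 share reads. H2-D1, a classical class I gene, had 187, 262 and 336 CPM in Cast and 87.4, 99.6 and 119 CPM in WSB (1.37 ± 0.13, adjusted p = 2.31e-13 and 7.86e-07). H2-K1, the other classical gene, had 116, 189.9 and 264 CPM in Cast and 414, 487 and 580.1 CPM in WSB (-1.37 ± 0.17, adjusted p = 3.49e-09 and 6.14e-06). Neither pair of ranges overlapped, and both genes share reads. H2-Q10, a nonclassical gene best known from liver, had 0.517, 1.38 and 7.53 CPM in Cast and 143, 385 and 561 CPM in WSB (-7.50 ± 0.71, adjusted p = 5.24e-13 and 4.21e-07; shares reads). The H2-Q10 fold was -8.27 without Cast replicate 3, where its level was highest in Cast.

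Macrophage genes moved in both directions. The lipid-associated gene Trem2, a lipid receptor of macrophages, had 37.9, 75.2 and 136 CPM in Cast, against 1.73, 4.42 and 6.04 CPM in WSB (4.23 ± 0.56, adjusted p = 9.6e-09 and 4.78e-07), and the fold was 4.50 without Cast replicates 5 and 6. All Cast libraries were above all WSB libraries, and the WSB mean was below every other strain, the next having 11.9 CPM. Spp1, the secreted protein osteopontin, had 0.262, 11.5 and 55.7 CPM in Cast and 0, 0.161 and 1.41 CPM in WSB (5.59 ± 1.04, adjusted p = 1.74e-05 and 0.00112), with a fold of 4.95 without Cast replicate 5 and 6.51 without WSB replicate 7. Ctsk, a lysosomal protease, had 15.2, 19.7 and 23.2 CPM in Cast and 6.05, 7 and 9.66 CPM in WSB, without overlap (1.36 ± 0.26, adjusted p = 2.09e-05 and 9.72e-07). In that list 6 of 15 rose and 1 fell, with 6 and 2 in the 15-library fit and a median of 0.5, against 4 and 1 and a median of 0.12 without Cast replicates 5 and 6.

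Of 22 general macrophage markers 9 rose and 2 fell, with 7 and 3 in the 15-library fit and 3 and 5 without Cast replicates 5 and 6. Folr2, a folate receptor of resident macrophages, had 3.67, 6.36 and 8.8 CPM in Cast and 0.895, 1.72 and 2.58 CPM in WSB (1.87 ± 0.20, adjusted p = 1.79e-11 and 2.3e-05), and Lyve1, a hyaluronan receptor of resident macrophages and lymphatics, had 37.6, 52.5 and 108 CPM in Cast and 9.81, 21.7 and 28.7 CPM in WSB (1.60 ± 0.28, adjusted p = 4.4e-06 and 0.000412). Neither gene overlapped between strains. Ms4a7, a membrane protein of macrophages, had 0, 0.0598 and 0.15 CPM in Cast and 2.34, 4.61 and 8.88 CPM in WSB (-6.32 ± 0.55, adjusted p = 2.17e-14 and 1.06e-07), below every other strain mean, and Ccr2, the receptor by which monocytes enter tissue, fell (-1.05 ± 0.32, adjusted p = 0.00697 and 0.0458), with a fold of -1.79 without Cast replicates 5 and 6. The pan-macrophage gene Csf1r, the receptor of the growth factor CSF1, did not pass the test, at 107, 127 and 196 CPM in Cast and 113, 137 and 154 CPM in WSB (0.03 ± 0.15, adjusted p = 0.901 and 0.87; shares reads), nor did the lysosomal marker Cd68 (0.60 ± 0.35, adjusted p = 0.169 and 0.0786).

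Mast cell proteases were higher in Cast. Of 10 mast cell markers 5 rose and 1 fell in each fit, with a median of 1.37, and 6 rose and 2 fell without Cast replicates 5 and 6, with a median of 1.13. Cpa3, the mast cell carboxypeptidase, had 4.51, 6.21 and 14.2 CPM in Cast, against 0.854, 0.941 and 1.73 CPM in WSB (2.89 ± 0.35, adjusted p = 7.34e-10 and 8.48e-07), Tpsb2, a tryptase, had 2.47, 3.95 and 9.84 CPM in Cast and 0.771, 1.24 and 1.6 CPM in WSB (2.08 ± 0.30, adjusted p = 1.24e-07 and 7.56e-05), and Cma1, a chymase, had 2.37, 2.86 and 8.22 CPM in Cast and 0.703, 1.17 and 1.87 CPM in WSB (1.82 ± 0.33, adjusted p = 1.34e-05 and 0.000378). Cast lay above WSB in all libraries for these 3, and for each the WSB mean was the lowest of the 8 strains while the Cast mean lay within the range of the others. The member that fell with all libraries was Kit, the receptor of stem cell factor, which other cells carry too (-0.82 ± 0.20, adjusted p = 0.000744 and 0.0362).

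Mmp9, a gelatinase of neutrophils and macrophages, had 0.69, 2.23 and 3.65 CPM in Cast, against 14.1, 39.2 and 68.6 CPM in WSB (-4.04 ± 0.72, adjusted p = 6.91e-06 and 4.29e-06), with no overlap. Mmp2, the gelatinase of stromal cells, ran the other way, at 174, 207 and 338 CPM in Cast and 79.5, 103 and 116 CPM in WSB (1.24 ± 0.17, adjusted p = 2.79e-08 and 1.05e-05), again with no overlap. Cxcl12, the stromal chemokine that retains leukocytes and progenitors, had 348, 548 and 609 CPM in Cast and 148, 185 and 296 CPM in WSB (1.41 ± 0.16, adjusted p = 7.5e-11 and 9.87e-06), and its Cast mean was above every other strain mean, the next being 297 CPM. Postn, the matrix protein periostin, fell (-1.25 ± 0.28, adjusted p = 0.000216 and 0.0124). Of 33 matrix genes 9 rose and 6 fell, with 6 and 3 both in the 15-library fit and without Cast replicates 5 and 6, and a median of -0.08.

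Cell division genes were lower in Cast, 17 of 24 with none higher in the 61-library fit and 14 lower and 1 higher in the 15-library fit. The median was -0.96, and -0.81 without Cast replicates 5 and 6, where 11 fell. Top2a, a topoisomerase of dividing cells, had 1.42, 2.76 and 6.02 CPM in Cast and 3.6, 8.73 and 15.1 CPM in WSB (-1.64 ± 0.36, adjusted p = 0.000224 and 0.00535). The mitotic cyclins Ccnb1 (-1.86 ± 0.40, adjusted p = 0.000134 and 0.00686) and Ccnb2 (-1.92 ± 0.46, adjusted p = 0.000598 and 0.00661) fell too. The ranges of all 3 overlapped.

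**Figure D4:**
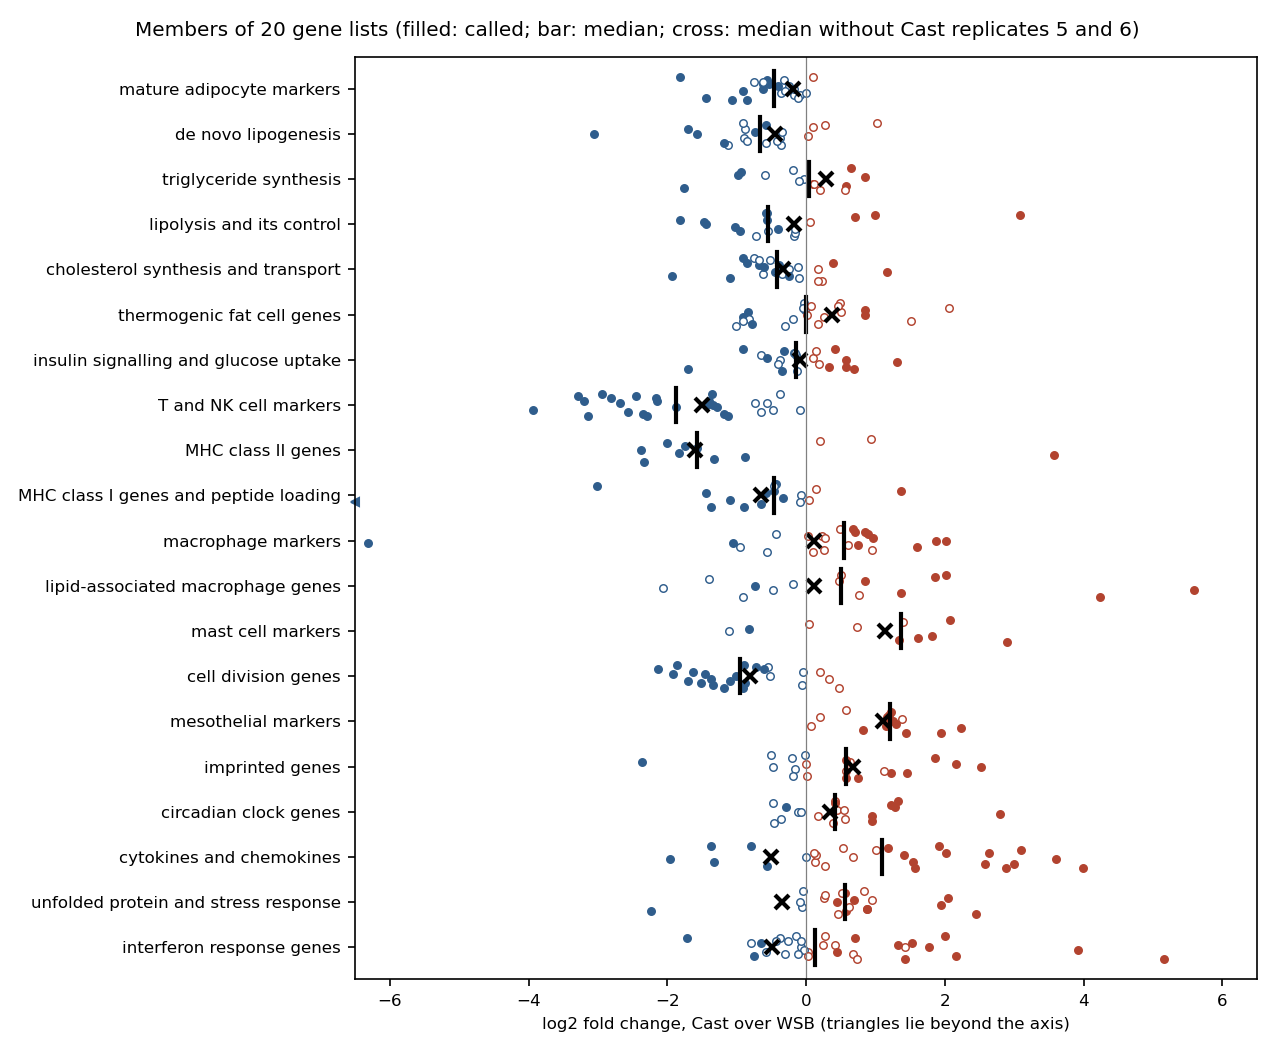
Log2 fold change of Cast over WSB (horizontal axis) for every tested member of 20 gene lists (points; filled where the gene was called in the 61-library fit, open where it was not), with the list median over all libraries (vertical bar) and without Cast replicates 5 and 6 (cross). T and NK cell, MHC class II and cell division genes lie mostly left of 0, mast cell and mesothelial genes mostly right, and the cross of the cytokine, stress and interferon lists lies left of 0 while the bar lies right of it.

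Mesothelial markers rose in 10 of 14, with none falling, in 9 of 14 in the 15-library fit and in 6 of 14 without Cast replicates 5 and 6. They summed to 136.4, 618.4 and 688.8 CPM in Cast and to 117.1, 232.8 and 376.1 CPM in WSB (lowest, median and highest). Muc16, a surface mucin of mesothelium, had 12.3, 55.6 and 108 CPM in Cast and 4.08, 14 and 20.8 CPM in WSB (1.95 ± 0.42, adjusted p = 0.000168 and 0.00157), and Msln, mesothelin, had 7.96, 71.4 and 80.8 CPM in Cast and 7.35, 19.7 and 35.4 CPM in WSB (1.44 ± 0.39, adjusted p = 0.00223 and 0.0115). The lowest sums were those of Cast replicate 7 and WSB replicate 5. The depot is not labelled. Among markers of other tissues, skeletal muscle transcripts reached 690.7 CPM in WSB replicate 1 and 400.2 CPM in WSB replicate 9, against a highest of 125.7 CPM in Cast. Of 16 muscle markers 9 fell in the 61-library fit, 2 in the 15-library fit and 4 without Cast replicates 5 and 6. Liver markers summed to 1052, 1630 and 3020 CPM in Cast and to 215.8, 383.6 and 1773 CPM in WSB. In that list 2 of 16 rose and 2 fell, against 1 and 0 without Cast replicates 5 and 6. Their median fold was 1.33, and -0.46 without Cast replicate 3. Of 16 pancreas markers 2 were tested and both fell, with every Cast library below every WSB library, and 4 of 8 red cell markers fell, 1 of 8 without Cast replicates 5 and 6. The part of dissection in these values was not tested.

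Imprinted genes, expressed from 1 parental allele and tied to growth, rose in 8 of 20 and fell in 1, with 6 and 0 in the 15-library fit and a median of 0.58. Without Cast replicates 5 and 6 the median was 0.68. Cdkn1c, a cell cycle inhibitor that shares reads, had 17.7, 35.3 and 149 CPM in Cast, against 5.47, 8.54 and 12.6 CPM in WSB (2.52 ± 0.27, adjusted p = 4.5e-11 and 0.000261), and Plagl1, a zinc finger regulator of this gene group, had 55.9, 109.8 and 203 CPM in Cast and 18.8, 31.9 and 48.8 CPM in WSB (1.86 ± 0.33, adjusted p = 5.7e-06 and 0.000217), both without overlap. Mest, which is known to track fat mass expansion, had 4.32, 24.7 and 101 CPM in Cast and 4.47, 8.79 and 13.1 CPM in WSB (2.17 ± 0.59, adjusted p = 0.00254 and 0.00869; shares reads). Both Mest means lay below those of the other 6 strains, which started at 148 CPM.

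Of 19 clock genes 7 rose and 1 fell, with 5 and 0 in the 15-library fit. Among the risers were Dbp (2.80 ± 0.63, adjusted p = 0.000298 and 0.0143; shares reads; 1.37 without Cast replicate 7) and Hlf (1.28 ± 0.22, adjusted p = 3e-06 and 0.00378), both PAR bZIP output factors, and Nr1d2, the repressor REV-ERB beta (1.22 ± 0.27, adjusted p = 0.00021 and 0.0129). Dbp had 1.01, 10.1 and 82 CPM in Cast and 1.13, 2.25 and 3.84 CPM in WSB, so its Cast libraries spread over a far wider range. Arntl, the activator BMAL1, did not pass the test, at 3.98, 20.6 and 42.1 CPM in Cast and 26.1, 34.1 and 42 CPM in WSB (-0.46 ± 0.26, adjusted p = 0.163 and 0.37). The labels give no time of day of collection. Glucocorticoid genes rose in 6 of 13 and fell in 2, with 5 and 1 in the 15-library fit and 4 and 1 without Cast replicates 5 and 6. The receptor's target Fkbp5, a chaperone that damps it, had 107, 303 and 1141 CPM in Cast and 50.5, 108 and 149 CPM in WSB (2.02 ± 0.44, adjusted p = 0.000162 and 0.00404), while Hsd11b1, which regenerates active glucocorticoid in fat, had 87.6, 96.4 and 138 CPM in Cast and 120.1, 289 and 425 CPM in WSB (-1.46 ± 0.30, adjusted p = 8.33e-05 and 0.000195).

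3 immune and stress lists had more members higher than lower in Cast with all libraries and more lower than higher when Cast replicates 5 and 6 were left out. Cytokines and chemokines rose in 13 of 26 and fell in 5 with all libraries (median 1.09), against 2 rising and 6 falling without those 2 libraries (median -0.51), and the median was 0.28 without Cast replicate 5 alone. Unfolded protein and stress genes rose in 8 of 20 and fell in 1 (median 0.56), against 2 and 9 without them (median -0.35). Interferon response genes rose in 10 of 32 and fell in 3 (median 0.13), against 3 and 14 without them (median -0.49). Of 11 neutrophil markers 2 rose and 1 fell (median 1.07), against 1 and 1 without them (median -0.18). The 15-library fit called 4 rising and 2 falling cytokines, 3 and 1 stress genes, and 4 and 1 interferon genes.

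Single genes show the same split. Ccl2, which draws monocytes, had 101 and 12.9 CPM in Cast replicates 5 and 6, 1.42, 3.41, 1.83, 3.74 and 2.86 CPM in Cast replicates 1, 2, 3, 7 and 8, and 0.761, 2.12 and 4.6 CPM in WSB. Its fold was 2.87 ± 0.73 with all libraries (adjusted p = 0.00123 and 0.0269), 0.10 without the pair (adjusted p = 0.924), and 0.83, no longer called, without Cast replicate 5 alone. Timp1, an inhibitor of matrix proteases, had 56.1 and 58.6 CPM in the pair and at most 3.21 CPM in the other Cast libraries, with a fold of 3.20 ± 0.67 (adjusted p = 9.64e-05 and 0.0177) against -0.21 without the pair (adjusted p = 0.804), and 2.55 and 2.50 without Cast replicate 5 or 6 alone. Hspa5, the chaperone BiP, had 2836 and 1340 CPM in the pair, between 377 and 649.6 CPM in the other Cast libraries, and 474, 697 and 847 CPM in WSB. It did not pass the test with all libraries (0.46 ± 0.24, adjusted p = 0.113 and 0.41) and was lower in Cast without the pair (-0.49, adjusted p = 0.0134). Mx2, an interferon-induced antiviral GTPase, was higher in Cast with the pair (5.16 ± 0.53, adjusted p = 5.75e-12 and 0.000232) and without it (2.78, adjusted p = 1.67e-09), at 3.90 without Cast replicate 5 alone, and its other Cast libraries were also all above WSB.

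**Figure D5:**
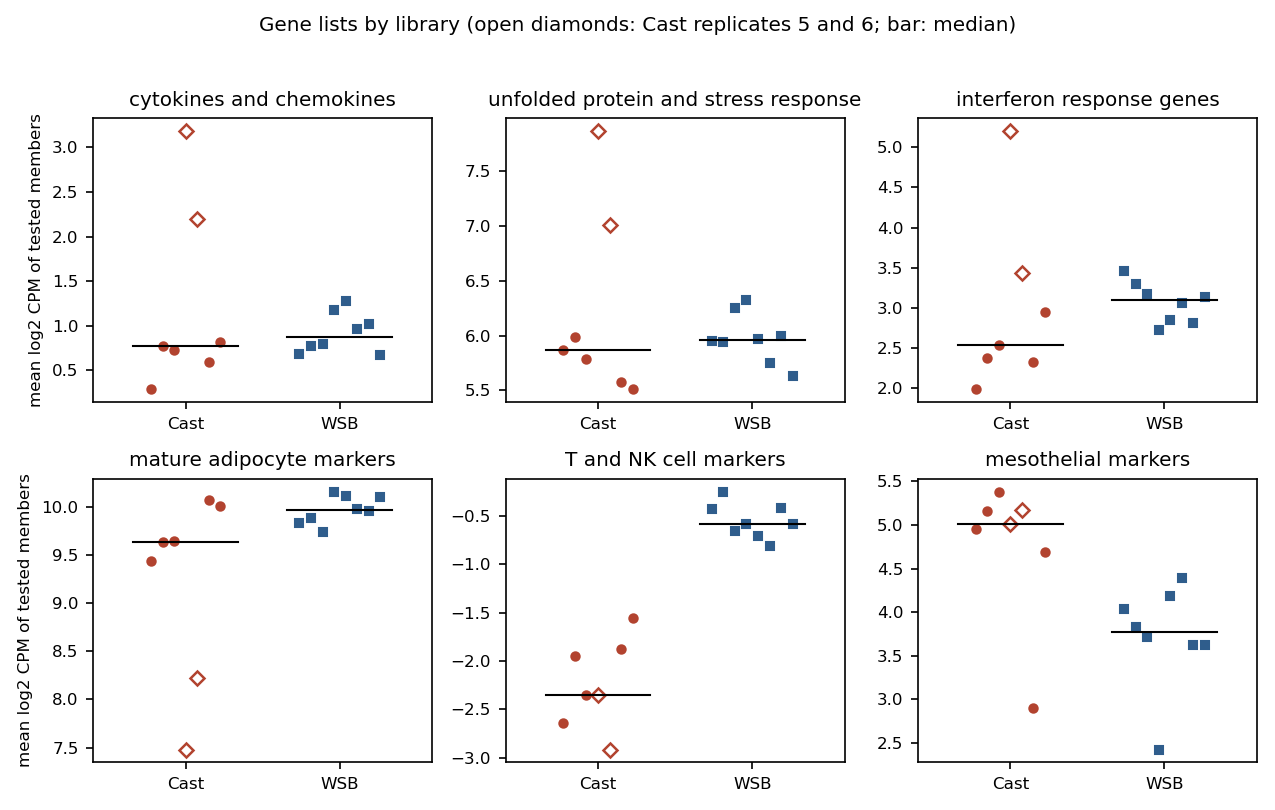
Mean log2 CPM of the tested members (vertical axis) of 6 gene lists in each Cast library (left; replicates 5 and 6 as open diamonds) and each WSB library (right), with a bar at the strain median. In the cytokine, stress and interferon lists Cast replicates 5 and 6 are the 2 highest Cast libraries and in the adipocyte marker list the 2 lowest, while T and NK cell markers are lower in all Cast libraries than in any WSB library and mesothelial markers are lowest in Cast replicate 7 and WSB replicate 5.

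Complement genes rose in 7 of 20 and fell in 2, with 6 and 1 in the 15-library fit. C6, part of the membrane attack complex, had 30.9, 285 and 340.2 CPM in Cast and 2.49, 23.4 and 103 CPM in WSB (2.51 ± 0.46, adjusted p = 1.07e-05 and 0.0172). C2, a classical pathway protease that shares reads, had 14.7, 20.6 and 27.4 CPM in Cast and 44, 77.3 and 119 CPM in WSB, with no overlap (-2.02 ± 0.22, adjusted p = 5.27e-11 and 2.78e-06). Glutathione and antioxidant genes fell in 12 of 28 and rose in 2, but fell in 4 and rose in 1 in the 15-library fit, and fell in 5 and rose in 2 without Cast replicates 5 and 6. Gsta4, a glutathione transferase that clears lipid aldehydes, had 6.1, 26.8 and 60 CPM in Cast, against 66.7, 81.1 and 86.4 CPM in WSB (-1.59 ± 0.33, adjusted p = 9.87e-05 and 0.00613).

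Differences also lay side by side on chromosomes (GRCm38). The share of tested genes called ran between 39.6% and 45.8% on autosomes and was 33.6% on the X chromosome. 24 runs of at least 4 neighbouring tested genes were called in the same direction by at least 1 on the log2 scale, 17 of them higher and 7 lower in Cast, with 121 genes in all. 3 runs of predicted genes on chromosome 2 held 14, 4 and 9 of them, nearly all of which share reads. On chromosome 12, 104263122 to 104414329, the protease inhibitor genes Serpina3i, Serpina3j, Serpina3k, Serpina3m and Serpina3n rose together by 2.23 to 7.46, although Serpina3i was no longer called without Cast replicate 5 (1.68). Serpina3i had 3.929 and 2.835 CPM in Cast replicates 5 and 6. It had 0.2798 to 0.9815 CPM in the other Cast libraries, which overlapped the 0.08786 to 0.7434 CPM of WSB. Without WSB replicate 8 the folds of Serpina3j and Serpina3k were 9.17 and 5.52, and without Cast replicates 5 and 6 that of Serpina3m was 5.58. Serpina3n, the most abundant of the 5 that does not share reads, had 359.5, 594 and 3896 CPM in Cast and 82.7, 208 and 348 CPM in WSB (2.65 ± 0.37, adjusted p = 3.08e-08 and 0.00161), with the highest value in Cast replicate 6 and a fold of 1.59 without Cast replicates 5 and 6.

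On chromosome 17, 25298394 to 25374442, the mast cell tryptase Tpsb2 described above lies in a run of 4 with Prss34, Tpsab1 and Tpsg1, which rose by 2.08 to 7.12, with a Prss34 fold of 7.99 without WSB replicate 8 and a Tpsg1 fold of 5.08 without WSB replicate 7. On chromosome 11, 73234292 to 73355913, the ion channels Trpv1 and Trpv3, the aspartoacylase Aspa and Spata22 had log2 fold changes between -4.01 and -1.33, and all 4 were called lower in both fits. Aspa, which frees acetate from N-acetylaspartate, had 2.99, 11.6 and 17.7 CPM in Cast, against 40.8, 58.1 and 73.8 CPM in WSB (-2.29 ± 0.32, adjusted p = 5.63e-08 and 5.13e-05), and Trpv1, the capsaicin receptor, had 0.0748, 0.298 and 0.716 CPM in Cast and 1.41, 3.65 and 6.41 CPM in WSB (-3.46 ± 0.36, adjusted p = 1.4e-11 and 0.000179). On chromosome 6, 129577905 to 129717132, 6 genes of the NK receptor cluster that begins with Klre1 had log2 fold changes between -2.65 and -1.91, and 1 of the 6 was called in the 15-library fit.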

How the data were processed

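RNA from adipose tissue was sequenced as poly(A)-selected libraries with added ERCC spike-in RNA, per the labels' protocols. The authors deposited estimated counts per gene, not scaled for depth, of which 21.1% were not whole (tolerance 1e-06). The authors also deposited log2-like values from a variance-stabilising transformation, which the submitters' processing notes tie to DESeq2, with build GRCm38. The aligner, the counter and whether reads were placed on strain-specific genomes are not given in the sources used here. For 23 genes a calendar date stood in place of the symbol, which was looked up by gene identifier.

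Estimated counts were rounded and tested with edgeR 4.0.16 (R 4.3.3): filterByExpr by strain, TMM scaling, 1 mean per strain over 61 libraries, robust quasi-likelihood fit, contrast Cast minus WSB, 2-sided, Benjamini-Hochberg adjusted p under 0.05. The same model was fitted on the 15 libraries alone. Alternatives used DESeq2 1.42.0, limma 3.58.1 on the deposited log2 values and sva 3.50.0. On simulated counts the 61-library fit recovered 89% of 100 genes given a log2 change of 1 and 54% of 100 given a log2 change of 0.5 (18395 genes), with 4.03% of calls on unchanged genes. The 15-library fit recovered 86% and 42% (16656 genes, 3.76%). Each simulated gene had the same spread in every strain and, apart from the genes changed in Cast, the same mean. The changed genes had a mean of at least 5 CPM. The simulation therefore does not show how either fit behaves where the Cast libraries spread more widely than the others.

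The comparison and its 49 gene lists (856 genes, of which 822 were in the table and 814 were tested) were chosen with earlier results of these data known, so lists are described by counts and medians and given no test. Genes were named by rule: the 12 largest changes each way among called genes of at least 5 CPM without overlap, the 10 most abundant called genes with a change of at least 1, in each list up to 3 called genes in the main direction and 1 in the other, well-known fat cell genes with Cwc22, and genes of the position and near-absent results. That rule took 204 genes; the text gives 77 of them, a selection made with their values known. Arntl, Atf3, C2, Ccl2, Ccr2, Cd3e, Cd68, Ciita, Csf1r, Ctsk, Cxcl12, Ddit3, H2-K1, Hspa5, Klre1, Mthfd2, Nkg7, Nr1d2, Phgdh, Prss34, Serpina3i, Sesn2, Shmt2, Spata22, Top2a, Tpsab1, Tpsg1, Trpv1 and Trpv3 lie outside that rule and were chosen after their values were seen. Sequences are RefSeq promoters of GRCm38.p6. Of the 24 runs of neighbouring genes 7 are described.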

Additional observations from a re-analysis of the deposited data

Results flagged for a closer look

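In each strain, 1 library was far from the others on the log2 CPM scale (Dixon's criterion at the 95% level, for 7 and 8 libraries) for some of the 106 genes named, and chance alone marks about 1 in 20 such groups. Of the 106 genes, 5 were marked in Cast and 12 in WSB. The number in Cast is near what chance alone would mark. In Cast, replicate 5 was lowest for Scd1 (39150 CPM) and Spata22 (0.199 CPM) and highest for Mthfd2 (24.03 CPM). Cast replicate 7 was lowest for Msln (7.96 CPM), and Cast replicate 3 was highest for H2-Q10 (7.53 CPM).

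In WSB, replicate 7 was lowest for the hormones Adipoq (2482 CPM) and Cfd (1501 CPM) and highest for Grb14 (21.4 CPM). It was also marked for Zfp429 (0.0639 CPM) and Zfp738 (0.0213 CPM), at 3 counts and 1 count. All other WSB libraries had 0 CPM of both, so any read in 1 library would have been marked, and these marks say nothing about replicate 7. Replicate 4 was lowest for the class II genes H2-Aa (81.2 CPM) and Cd74 (140.5 CPM). Replicate 5 was lowest for the mesothelial genes Msln (7.35 CPM) and Muc16 (4.08 CPM) and highest for Ddit3 (20.8 CPM). Replicate 9 was lowest for Psat1 (89.2 CPM), still above every Cast library, and replicate 8 was highest for Gad1 (0.29 CPM), still below every Cast library.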

How the results depend on the processing

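With RLE factors, without a low-count filter, with DESeq2, with limma, with an Xist covariate, with 2 surrogate variables and on autosomes alone, the count of genes called stayed within 1.5 times that of the 61-library fit. The 15-library fit called 4710 genes (2424 higher and 2286 lower in Cast), 214 list genes, 1780 genes with only Cast outside the other strains and 11 runs. Placement was set once from the strain means of all 61 libraries and was not recomputed in any alternative. The counts with only Cast outside therefore follow the number of genes called and cannot show whether the placement itself holds. At a mean of at least 5 CPM, which tests fewer genes, 4847 were called (2577 higher and 2270 lower), 1688 with only Cast outside and 6 runs. A change of at least 1 left 3256 (1633 higher and 1623 lower), 197 list genes and 1321 with only Cast outside. Limma on the deposited log2 values, whose scale compresses low genes, gave 5 runs, and leaving out genes that share reads gave 12.

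Replicate numbers shared by the strains did not meet the criterion for pairing, a correlation over 0.1 for every number: same-numbered libraries correlated at 0.05 to 0.224 in their deviations over 6 numbers, 4 of them over 0.1, and 1 Cast library correlated best with its own number. With the replicate block on the 15 libraries, 2732 genes were called (1291 higher and 1441 lower), with 119 list genes, 1098 with only Cast outside and 8 runs, 23 of 92 called genes named here were no longer called, and Csf1r (-0.07), Mthfd2 (-0.36) and Ucp1 (0.89) changed sign without being called.

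With 1 library left out at a time, 6919 to 7808 genes were called (3353 to 3987 higher and 3451 to 3853 lower), 292 to 358 list genes, 2558 to 2891 with only Cast outside, 20 to 26 runs and 12 to 21 near-absent genes, the 21 without WSB replicate 8. Here too the placement was that of all libraries, so it was not tested against leaving a library out. No called gene named here changed sign in those fits. Genes not called did: Csf1r (-0.08 to 0.08), Hspa5 (-0.12 to 0.6), Lep (-1.24 to 0.54), Mthfd2 (-0.73 to 0.23) and Ucp1 (-1.13 to 0.38).

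Without Cast replicates 5 and 6, chosen after the data were seen, Timp1 (-0.21), Ddit3 (-0.28), Atf3 (-0.27), Hspa5 (-0.49), Mthfd2 (-0.91), Cfd (0.02) and Ucp1 (0.16) changed sign, and without WSB replicate 7 as well, Atf3 (-0.28), Ddit3 (-0.3), Hspa5 (-0.49), Mthfd2 (-0.85) and Lep (1.01). Without WSB replicates 1 and 9, Mthfd2 was -0.11 and Ucp1 0.7. Using 2 surrogate variables, the values were Lep 0.14, Mthfd2 -0.04 and Ucp1 0.97, and limma gave Mthfd2 -0.12. The cause was not tested. Among the 94 called genes named, 89 were also called by the 15-library fit. Depth limits the transcripts under 1 CPM, such as most T cell and receptor genes, to few reads per library.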
